A study of Rattus norvegicus with 10 samples.

Results

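Gene expression in the mammary gland of rats fed a diet named GEN (genistein) was compared with that of rats fed a diet named CAS, on 3 arrays of each diet, 6 of the 10 arrays of the series. Arrays were assigned to a diet by the start of their sample titles. All animals were female Sprague-Dawley rats on purified diets, studied at postnatal day 50. The labels do not spell out CAS or SPI, the remaining diet, which has 4 arrays; from knowledge of this field they stand for casein and soy protein isolate, and CAS served as the reference. CAS 1 and CAS 2 and all GEN arrays (replicates 1, 3 and 5) are described as pools of RNA from the number 4 mammary glands of 2 animals, while the label of CAS 3 gives a pool of 7 animals, which differs from the design text, where each RNA sample came from 2 animals. The labels also state that several labelled targets were made from each pool without saying which arrays share one. The spread behind each p-value may therefore be partly technical. No dose of genistein and no feeding time is given in the labels. The source field names mammary epithelial cells, the labelling protocol the whole gland, and the design text colon as well.

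Genistein is an isoflavone of soybean that binds estrogen receptors and, at higher concentrations, inhibits tyrosine kinases such as the EGF receptor. The virgin gland of a rat at this age is a branching tree of luminal cells, which can make milk, wrapped in contractile myoepithelial cells and set in fat and connective tissue. Estrogen drives duct growth through its receptor and local growth factors, and prolactin, acting through Jak2 and Stat5, turns on the genes of milk proteins and of milk fat synthesis.

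The arrays held signal of many cell types and not of epithelium alone. The luminal adhesion gene Epcam read 3052 to 4197 on GEN and 1834 to 3779 on CAS, the basal keratin gene Krt5 1072 to 1780.4 on GEN and 664.5 to 970.1 on CAS, the adipocyte lipid carrier Fabp4 13926 to 14538 on GEN and 10206 to 14831 on CAS, and the collagen gene Col1a1 8969.9 to 10786 on GEN and 9492 to 20511 on CAS. Of the 22 colon epithelial markers on the array, 17 lay below the brightness filter described below, among them Cdx1, Muc2, Slc26a3 and Fabp1. The 5 above it were Clca1, Lgals4, Tff3, Cdx2 and Reg3b, and Clca1 read 5165 to 12365 on GEN and 1204 to 3580 on CAS. Whether colon tissue contributed to any array was not tested. Median signals ran from 236.7 to 256.7 over the 6 arrays. The beta-actin 3'/5' ratio, in which a high value means shorter transcripts, was 5.04, 4.06 and 4.70 on CAS 1, 2 and 3 and 5.15, 3.74 and 2.83 on GEN 1, 3 and 5, and the GAPDH ratio was 1.71, 1.59 and 1.73 against 1.66, 1.18 and 1.25. Across probe sets, which are not independent replicates, the 6 pairs within a diet correlated at 0.939 to 0.946 and the 9 pairs between diets at 0.932 to 0.950, 2 ranges that overlapped.

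No gene passed the test between the GEN and CAS diets. Of 9520 probe sets tested with limma, 0 (0%) reached an adjusted p under 0.05. Apod came closest, at 0.0642 in limma. At an unadjusted p under 0.05 there were 561 probe sets (5.89%), of which 257 were higher on GEN (2.70%) and 304 lower (3.19%). Of all tested, 95 (0.998%) were under 0.01. If the diets did not differ, a share about equal to each threshold would be expected. The share under 0.05 was slightly above its threshold, and the share under 0.01 was about equal to it. The same model without an intensity trend gave 0 adjusted calls and 537 at an unadjusted p under 0.05. The 3 GEN arrays lay wholly above or wholly below the 3 CAS arrays for 1058 probe sets (11.1%). A sizeable share of probe sets is expected to split this way between 3 and 3 arrays without any difference. The median log2 difference was -0.01, and 64 probe sets differed by more than 1 log2 unit, which is 2-fold. With so few arrays the median half-width of the 95% intervals, which are not adjusted for the number of tests, was 0.44 log2 units. Differences smaller than that mostly could not reach an unadjusted p under 0.05. Far larger ones also did not pass: Fabp3, with a difference of 2.04 log2 units, had an adjusted p of 0.462 in limma. In what follows, log2 differences are GEN minus CAS with the standard error of the fit, and every value is given as one that did not pass unless its adjusted p is under 0.05, which none was.

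**Figure D1:**
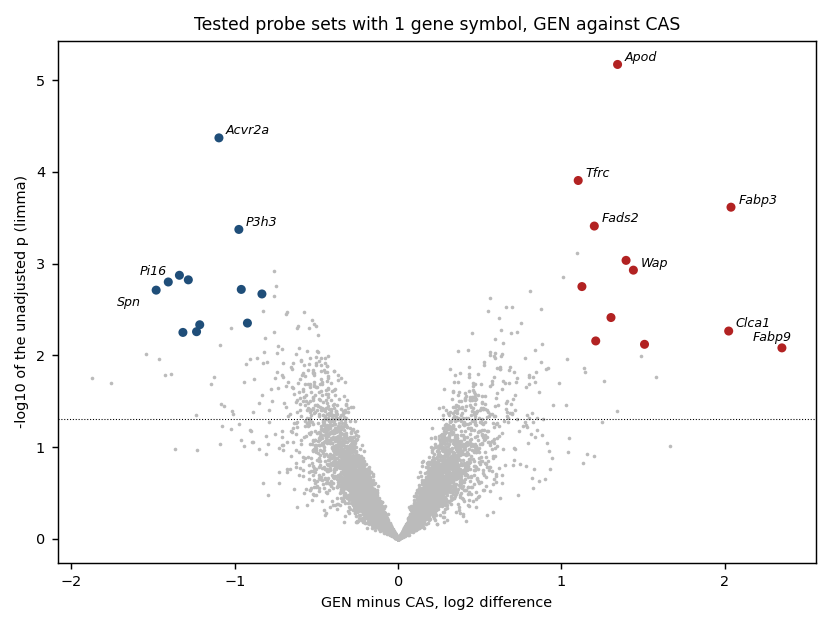
Each point is 1 tested probe set with 1 gene symbol; the x axis is the GEN minus CAS log2 difference and the y axis is -log10 of the unadjusted p from limma's fit across all probe sets, with a dotted line at the 0.05 threshold. Red and blue points are the 12 named genes at each end, with Apod (1.34) and Acvr2a (-1.10) at the top of each side.

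Genes were named by a rule (unadjusted p under 0.01, no overlap between diets), the largest differences first. About as many probe sets as the 95 observed would pass that p threshold if the diets did not differ. The functional groups below therefore describe the named genes and are not a test of enrichment. The genes with the largest differences that met this naming rule included 4 genes of lipid handling, which were higher on GEN. Apod, a small lipid-carrying apolipoprotein of the lipocalin family, read 263, 214 and 174 on CAS 1, 2 and 3 and 510.2, 495 and 632 on GEN 1, 3 and 5. All GEN arrays lay above all CAS arrays, by 1.34 ± 0.19 (SE), a 2.54-fold difference with a 95% interval of 0.94 to 1.74 on the log2 scale and an adjusted p of 0.0642 in limma. Fabp3, the fatty acid binding protein of heart and mammary gland, read 769, 296 and 312.5 on CAS 1, 2 and 3 and 1679, 1174 and 2503 on GEN 1, 3 and 5. GEN 5 was the highest and CAS 1 was well above the other CAS arrays, and the difference was 2.04 ± 0.41 (SE), or 4.11-fold, with an adjusted p of 0.462 in limma. Fads2, the desaturase that begins the making of long polyunsaturated fatty acids, read 160.4, 143 and 125 on CAS 1, 2 and 3 and 337, 254 and 405 on GEN 1, 3 and 5, a difference of 1.20 ± 0.25 (SE) (adjusted p = 0.577 in limma) with narrow CAS values. Fabp9, a relative of Fabp3 best known from testis, had the highest difference of all named genes at 2.35 ± 0.75 (SE) with 116.5, 252 and 13.0 on CAS and 429.9, 324.5 and 362 on GEN. It is also the least certain, because CAS 3 alone was very dim and the difference was 1.11 without it.

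Genes of uptake, ion and amino acid metabolism were also at this end. Tfrc, the transferrin receptor that brings iron into cells, read 1144, 1051 and 884 on CAS 1, 2 and 3 and 1985, 1919 and 2762 on GEN 1, 3 and 5, with every GEN array above every CAS array and a difference of 1.10 ± 0.20 (SE) (adjusted p = 0.296 in limma). A dimmer probe set of Tfrc also did not overlap and differed by 0.88. Car2, the cytosolic carbonic anhydrase, read 396, 269.6 and 274 on CAS 1, 2 and 3 and 702.5, 628 and 1206 on GEN 1, 3 and 5, a difference of 1.40 ± 0.33 (SE); its dimmer probe set overlapped, with a difference of 0.80. Phgdh, which opens the synthesis of serine from a glycolytic intermediate, read 195, 141.5 and 45.0 on CAS 1, 2 and 3 and 292, 337 and 292 on GEN 1, 3 and 5. The GEN arrays were close together and the CAS arrays were spread by CAS 3, and the difference of 1.51 was 0.88 without that array. Clca1, a secreted protein of mucus-producing epithelia that modulates chloride channels, read 2524.5, 1204 and 3579.7 on CAS 1, 2 and 3 and 5165, 11457 and 12365 on GEN 1, 3 and 5, a difference of 2.02 ± 0.61 (SE), with GEN 3 and GEN 5 far above the rest.

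The other 4 genes of the upper 12 were Wap, Lgals7, Ndufb8 and Scn7a. Wap, a whey protein found in the milk of rodents, differed by 1.44 ± 0.35 (SE) and is described with the milk genes. Lgals7, a galectin of stratified and basal epithelium, read 463, 210 and 324 on CAS 1, 2 and 3 and 876.5, 509.9 and 1057 on GEN 1, 3 and 5, a difference of 1.30 ± 0.37 (SE) in which the lowest GEN array, GEN 3, stood close to the highest CAS array, CAS 1. Scn7a, a sodium channel of Schwann cells and sensory tissue, read 257.5, 551 and 272 on CAS 1, 2 and 3 and 764, 694 and 755 on GEN 1, 3 and 5, a difference of 1.13 ± 0.29 (SE) with CAS 2 well above CAS 1 and CAS 3. Ndufb8, a subunit of respiratory complex I, differed by 1.21 ± 0.38 (SE) with 278, 213.5 and 83.3 on CAS and 350.3, 426 and 410 on GEN, and by 0.69 without CAS 3. In limma the adjusted p was 0.766 for Car2, Scn7a and Wap, and 0.825 for Fabp9, Clca1, Phgdh, Lgals7 and Ndufb8. In these 12 genes GEN 5 was the highest GEN array in 8 and the lowest in 0, and GEN 3 was the lowest in 9. GEN 5 also had the lowest actin 3'/5' ratio of the 6 arrays; its part in these values was not tested.

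At the lower end stood Acvr2a, a type II receptor for activins, at 311, 344 and 434 on CAS 1, 2 and 3 and 182, 152 and 172 on GEN 1, 3 and 5. The GEN arrays were tightly grouped below all CAS arrays, the difference was -1.10 ± 0.18 (SE), a 2.14-fold lower mean, and the adjusted p in limma was 0.135, the smallest among named genes with lower means. P3h3, a collagen prolyl hydroxylase, read 710.1, 490.3 and 449.7 on CAS 1, 2 and 3 and 318, 237 and 273.5 on GEN 1, 3 and 5, a difference of -0.98 ± 0.21 (SE) (adjusted p = 0.577 in limma). Col5a3, a chain of type V collagen, read 788, 836 and 581 on CAS 1, 2 and 3 and 447, 154 and 343 on GEN 1, 3 and 5; GEN 3 was the lowest, and the difference of -1.34 ± 0.33 (SE) was -0.89 without that array. Both are genes of the fibrillar matrix.

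Surface genes of fibroblasts were also among the lower 12. Pi16, which marks fibroblasts of the adventitia, read 1433, 849 and 714 on CAS 1, 2 and 3 and 360.4, 402 and 321 on GEN 1, 3 and 5, a difference of -1.41 ± 0.35 (SE) with the GEN arrays close together. Cd248, the endosialin of stromal fibroblasts and pericytes, read 3664.5, 1068 and 1802 on CAS 1, 2 and 3 and 659, 909 and 760 on GEN 1, 3 and 5. CAS 1 was far above the other CAS arrays, and the difference of -1.32 ± 0.40 (SE) was -0.85 without it. Cd55, a regulator of complement that fibroblasts of the same niche carry, read 1266, 790 and 704 on CAS 1, 2 and 3 and 382, 660.5 and 379 on GEN 1, 3 and 5, a difference of -0.96 ± 0.25 (SE) in which GEN 3 came close to CAS 3; a probe set of Cd55 below the filter differed by -0.16 with overlap.

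Leukocyte genes made up another 3. Spn, the sialophorin (CD43) of leukocytes, read 266, 218 and 705.5 on CAS 1, 2 and 3 and 123.5, 162 and 94.1 on GEN 1, 3 and 5, a difference of -1.48 ± 0.38 (SE) that was -0.97 without CAS 3, its highest array. Stab1, a scavenger receptor of macrophages and sinusoidal endothelium, read 474, 613 and 601 on CAS 1, 2 and 3 and 343, 302 and 247 on GEN 1, 3 and 5, a difference of -0.92 ± 0.27 (SE), with all CAS arrays within a narrow range. Adgre5, the adhesion receptor CD97, read 580.2, 347 and 548 on CAS 1, 2 and 3 and 291, 258 and 259 on GEN 1, 3 and 5, a difference of -0.83 ± 0.22 (SE). The remaining genes were Cdh22, a cadherin (-1.28), Uqcc3, an assembly factor of respiratory complex III (-1.23), and Hs1bp3 (-1.21). Uqcc3 stood at -0.73 without CAS 3, and Hs1bp3 at -0.75 without GEN 3. The adjusted p in limma was 0.766 for Spn, Pi16, Col5a3, Cdh22, Cd55 and Adgre5, and 0.825 for Cd248, Uqcc3, Hs1bp3 and Stab1. Leaving out 1 array moved 8 of these 24 differences by more than 1.5 times, 5 of them through CAS 3, the array whose label names a larger pool than the design text.

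**Figure D2:**
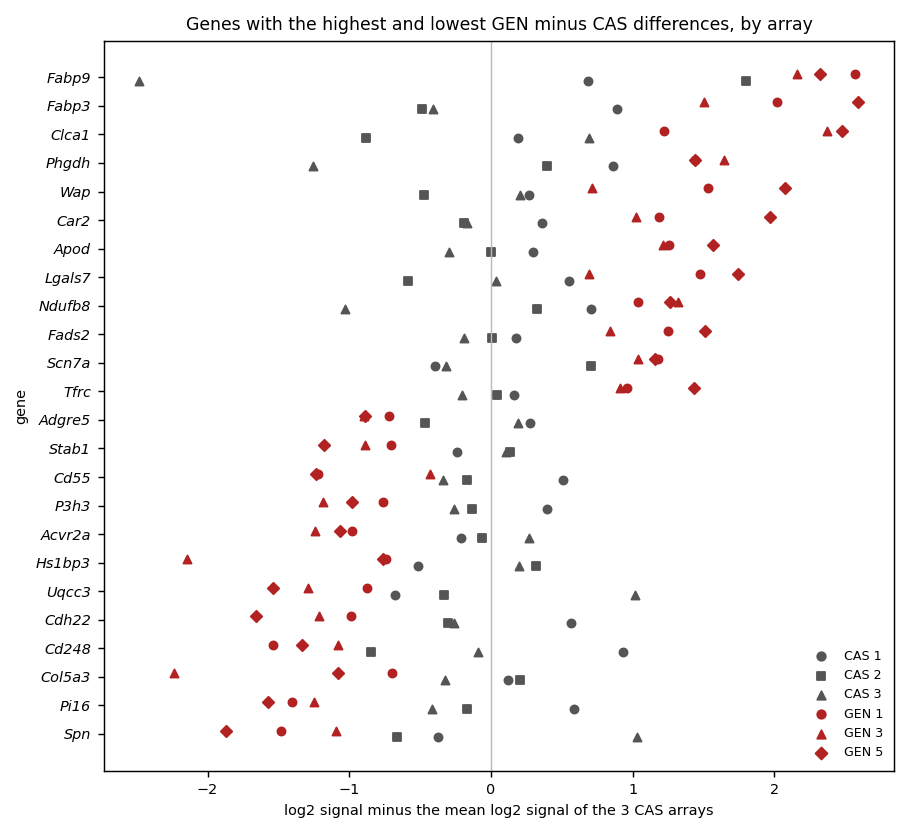
The x axis is the log2 signal of each of the 6 arrays minus the mean log2 signal of the 3 CAS arrays, for the 12 genes with the highest and the 12 with the lowest differences (y axis) that met the naming rule; grey symbols are CAS and red symbols GEN, with the shape giving the replicate. By the rule the red and grey symbols of a gene do not overlap, and single CAS arrays stand far off for Fabp9, Phgdh and Ndufb8 (CAS 3, on the left) and for Cd248 (CAS 1, on the right).

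For gene lists, each of 7119 genes was read from its brightest probe set. Over all these genes the median difference was -0.02, 46.2% had a higher mean on GEN, 420 (5.90%) had an unadjusted p under 0.05, 177 (2.49%) higher and 243 (3.41%) lower, and 379 (5.32%) lay wholly above and 402 (5.65%) wholly below CAS. Each list below is to be read against these shares, and no member of any list reached an adjusted p under 0.05. The lists were chosen with earlier results of these data known, and several hold genes already named above. Their counts are therefore a description and not a test of enrichment. Of the 34 list means, those of fatty acid binding and oxidation, xenobiotic metabolism, adipocytes, Schwann cells and colon epithelium lay wholly above CAS. That of extracellular matrix lay wholly below, and the rest overlapped. Some lists are expected to split this way without any difference. Less RNA per cell of a type and fewer such cells cannot be told apart in pooled tissue.

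Milk protein and secretory genes had higher means on GEN in 12 of 13 tested members, with a median difference of 0.78. At an unadjusted p under 0.05, 7 were higher and 0 lower, and 5 lay wholly above CAS. Wap read 1489, 894 and 1424 on CAS 1, 2 and 3 and 3586, 2027 and 5212 on GEN 1, 3 and 5. The lowest GEN array, GEN 3, was above the highest CAS array, and the means were 2.71-fold apart with a 95% interval of 0.69 to 2.19 on the log2 scale. The alpha-S1 casein gene Csn1s1 read 20137, 9120.2 and 15828 on CAS 1, 2 and 3 and 24791, 22522 and 26451 on GEN 1, 3 and 5, a difference of 0.78 ± 0.30 (SE), with CAS 2 the lowest of the CAS arrays. Its value on GEN 5 was the highest signal of that array, and whether differences are compressed at such signals was not tested. Kappa-casein, Csn3, which keeps the casein micelle in solution, read 14693, 6233 and 12772 on CAS and 17131, 19587 and 21924 on GEN, a difference of 0.88 ± 0.41 (SE). The next 3 genes, named here after their values were seen, overlapped between the diets. Beta-casein, Csn2, read 14829, 2330.1 and 6057 on CAS and 14257, 12614 and 18876 on GEN (1.34 ± 0.59 (SE)), the mucin-like Glycam1 4041, 450.4 and 1021 on CAS and 2106, 3058 and 3862 on GEN (1.25 ± 0.59 (SE)), and alpha-lactalbumin, Lalba, of lactose synthesis, 15784, 8299.5 and 11895 on CAS and 16575, 12181 and 18514.5 on GEN (0.42 ± 0.23 (SE)). In all of these CAS 2 was the lowest of the 6 arrays and in Csn2, Glycam1 and Lalba CAS 1 reached the level of GEN arrays.

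Genes of the milk fat globule were split. Plin2, which coats lipid droplets, read 4958, 3336 and 3104 on CAS and 5580.4, 5178 and 7546 on GEN (0.70 ± 0.19 (SE)), though a dimmer probe set of Plin2 differed by -0.10 with overlap. Muc1, the mucin of the apical membrane, read 360, 251 and 284 on CAS and 508, 385 and 661 on GEN (0.78 ± 0.26 (SE)), and Mfge8, a glycoprotein of the globule membrane, differed by 0.37 with overlap. Xdh, the oxidoreductase bound to the globule, was at -0.12 and was the 1 member with a lower mean. The mean of the 13 genes was 11.60, 10.60 and 11.17 on CAS 1, 2 and 3 and 11.79, 11.48 and 12.16 on GEN 1, 3 and 5, so the diets overlapped: CAS 1 was above GEN 3. The mean difference of 0.69 was 0.43 without CAS 2, 0.51 without GEN 5 and 0.93 without CAS 1. The luminal marker list, given below, was also lowest on CAS 2 and highest on GEN 5; its part in the milk values was not tested.

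**Figure D3:**
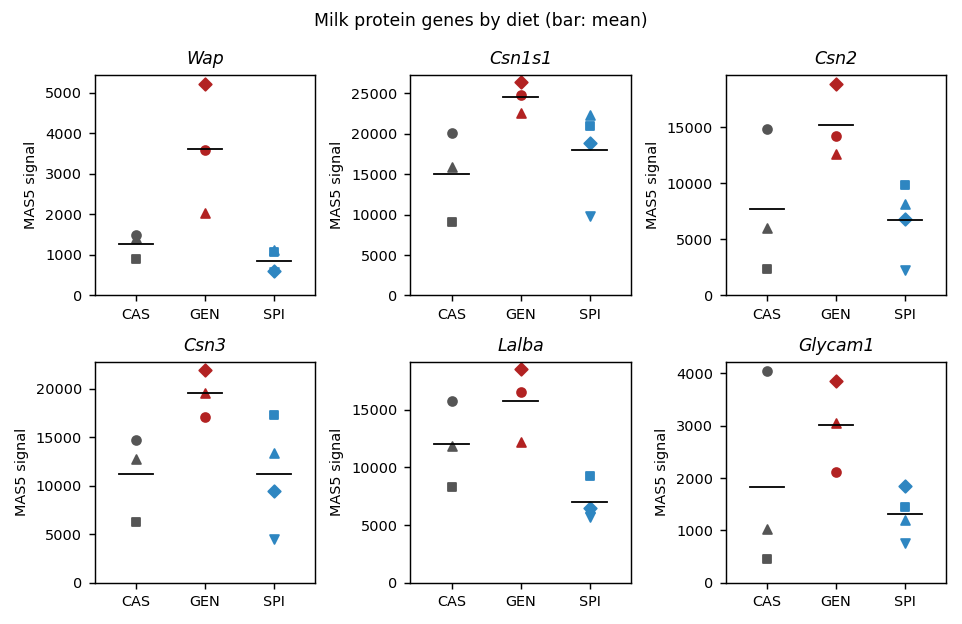
MAS5 signal (y axis, from 0) of 6 milk protein genes on each array of the 3 diets (x axis), with a bar at the mean of each diet. Wap, Csn1s1 and Csn3 have all 3 GEN arrays above all 3 CAS arrays, while Csn2, Lalba and Glycam1 overlap because CAS 1 is high.

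Prolactin acts on milk genes through Stat factors, whose palindromic core site is TTCNNNGAA. The promoters of Wap, Csn1s1, Csn2 and Glycam1 are shown, and those of Csn3 and Lalba are not. Csn1s1, Csn2 and Glycam1 were the only tested milk genes found with the core, so the choice favours matches. The sequences are from RefSeq (build GRCr8) and run from 250 bases before to 50 bases after the annotated start, 5′ to 3′ on the strand of the gene; capitals mark a match to the core.
Wap promoter, chr14:85719110-85719409, minus strand: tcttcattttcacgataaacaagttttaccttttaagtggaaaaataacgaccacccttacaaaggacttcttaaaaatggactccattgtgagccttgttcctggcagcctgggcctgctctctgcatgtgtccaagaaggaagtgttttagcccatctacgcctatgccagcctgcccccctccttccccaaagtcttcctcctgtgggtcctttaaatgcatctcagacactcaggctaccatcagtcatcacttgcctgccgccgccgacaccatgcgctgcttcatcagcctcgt
Csn1s1 promoter, chr14:20638800-20639099, minus strand: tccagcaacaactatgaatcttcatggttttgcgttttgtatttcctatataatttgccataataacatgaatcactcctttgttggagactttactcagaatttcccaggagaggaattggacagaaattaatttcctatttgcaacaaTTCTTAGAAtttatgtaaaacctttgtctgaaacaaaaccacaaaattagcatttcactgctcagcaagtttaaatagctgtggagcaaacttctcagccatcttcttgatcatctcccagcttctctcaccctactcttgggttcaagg
Csn2 promoter, chr14:20601574-20601873, plus strand: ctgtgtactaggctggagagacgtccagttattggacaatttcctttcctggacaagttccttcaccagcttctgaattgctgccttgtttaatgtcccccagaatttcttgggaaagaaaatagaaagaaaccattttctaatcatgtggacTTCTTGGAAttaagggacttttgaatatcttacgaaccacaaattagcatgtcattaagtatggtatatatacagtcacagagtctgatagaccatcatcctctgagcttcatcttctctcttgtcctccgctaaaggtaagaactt
Glycam1 promoter, chr7:136561250-136561549, minus strand: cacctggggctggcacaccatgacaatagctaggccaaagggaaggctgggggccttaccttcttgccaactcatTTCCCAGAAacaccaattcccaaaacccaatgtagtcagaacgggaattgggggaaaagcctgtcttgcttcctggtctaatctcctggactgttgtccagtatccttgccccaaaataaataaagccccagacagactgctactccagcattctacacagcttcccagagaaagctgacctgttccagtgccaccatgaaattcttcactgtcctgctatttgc
The core begins 100 bases before the start in Csn1s1, 97 in Csn2 and 175 in Glycam1. The letters are not in this window of Wap, which had the highest difference of the milk genes. Of the 13 tested milk genes 12 had a promoter in the table and 3 (25%) held the core, against 2970 of 33469 promoters overall (8.87%). Of the 24 genes named above as highest or lowest, 19 had a promoter and 0 held it. A match describes letters and is no evidence of binding.

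Luminal epithelial markers had higher means on GEN in 15 of 18 tested members (median 0.38), with 4 higher and 0 lower at an unadjusted p under 0.05 and 2 wholly above CAS. Cd9, a tetraspanin of epithelial membranes, read 1381, 1201 and 1181 on CAS 1, 2 and 3 and 1782, 2007 and 2497 on GEN 1, 3 and 5, a difference of 0.73 ± 0.22 (SE). The simple-epithelial keratin Krt8 read 4418, 1791 and 2807 on CAS and 3461, 4270.1 and 5259.7 on GEN (0.60 ± 0.32 (SE)) and Epcam 3779, 1834 and 2762 on CAS and 3219.7, 3052 and 4197 on GEN (0.37 ± 0.26 (SE)), both with overlap because CAS 1 was high. The tight junction genes Cldn3 (0.67) and Ocln (0.47) overlapped as well, and Gata3, a transcription factor of luminal fate, was at -0.30. The list mean was 10.16, 9.55 and 9.84 on CAS 1, 2 and 3 and 10.05, 10.01 and 10.46 on GEN 1, 3 and 5, and its difference of 0.33 was 0.18 without CAS 2 and also 0.18 without GEN 5.

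Basal and myoepithelial markers were higher in 16 of 17 members (median 0.35), with 3 higher and 0 lower at an unadjusted p under 0.05 and 5 wholly above CAS. The keratins of the basal layer led them. Krt15 read 802, 488.5 and 407 on CAS 1, 2 and 3 and 1844, 916 and 2084 on GEN 1, 3 and 5, a difference of 1.49 ± 0.49 (SE), and Krt5 970.1, 664.5 and 750.5 on CAS 1, 2 and 3 and 1780.4, 1072 and 1665 on GEN 1, 3 and 5, a difference of 0.91 ± 0.32 (SE). In both, GEN 3 was the lowest GEN array and stood just above CAS 1. Krt14, the partner of Krt5, read 1380.5, 502 and 605 on CAS and 1480.3, 816.5 and 1631 on GEN and overlapped (0.74 ± 0.49 (SE)). The contractile genes of myoepithelium and smooth muscle differed little, with Acta2 at 0.08 ± 0.14 (SE), Tagln at 0.07 ± 0.17 (SE), Cnn1 at 0.10 ± 0.27 (SE) and Myh11 at -0.05 ± 0.27 (SE). The list mean was 10.19, 9.91 and 9.83 on CAS 1, 2 and 3 and 10.59, 10.11 and 10.59 on GEN 1, 3 and 5.

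**Figure D4:**
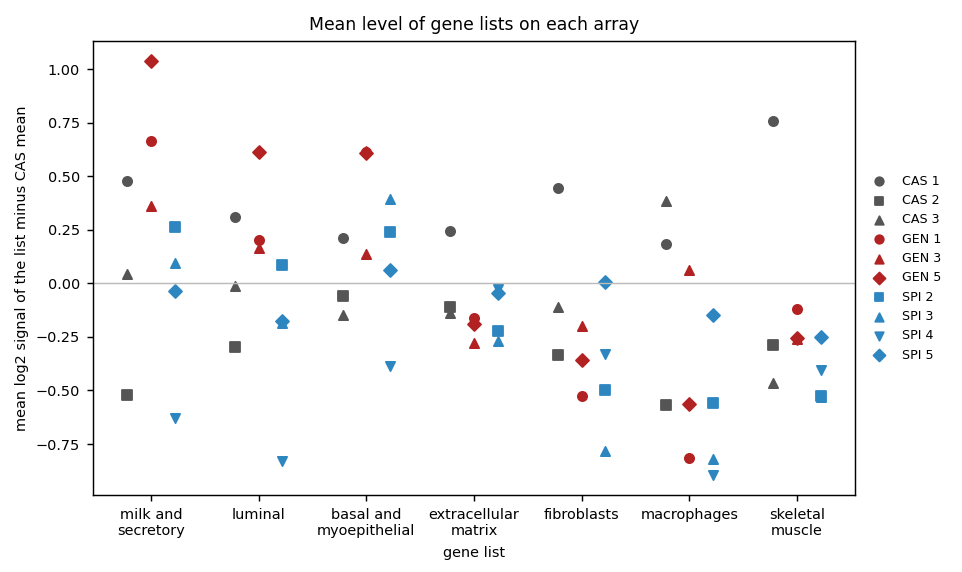
The y axis is the mean log2 signal of all tested members of a list on each array, minus the mean of the 3 CAS arrays, for 7 lists (x axis); colour gives the diet and shape the replicate, and GEN 1 lies under GEN 5 in the basal list. CAS 1 is the highest CAS array in 6 of the lists, macrophages being the exception, and in the extracellular matrix list all 3 GEN arrays lie below all 3 CAS arrays.

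Receptors for steroid hormones could be read only in part. Esr1, the main estrogen receptor of the gland, gave 11.4, 12.6 and 9.5 on CAS and 12.8, 16.1 and 14.2 on GEN, at the dim end of the array and far below the lowest mean tested, 162. Esr2 gave 3.4 to 8.1 on GEN and 4.7 to 10.9 on CAS. Pgr, the progesterone receptor and an estrogen target, gave 98.2, 145.7 and 126.5 on GEN within the CAS range of 94.1 to 186.3. All of these were below the filter and were not tested. Of 9 tested receptors and cofactors, 5 had higher and 4 lower means (median 0.04). Nr3c2, the mineralocorticoid receptor, was the 1 member wholly above CAS, at 262, 227 and 193 on CAS and 364, 339 and 318 on GEN (0.59 ± 0.20 (SE)). The glucocorticoid receptor Nr3c1 differed by -0.16 ± 0.19 (SE).

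Estrogen and progesterone targets had higher means in 5 and lower means in 11 of 16 tested members, with a median of -0.11. Cited2, a transcriptional coregulator, was the 1 member under an unadjusted p of 0.05, lower at 2315, 1918.5 and 1916 on CAS and 1765, 1398 and 1274.5 on GEN (-0.48 ± 0.20 (SE)); a second probe set of Cited2, almost as bright, differed by 0.05 with overlap. The growth factor Areg, through which estrogen acts on duct growth, differed by -0.28 ± 0.23 (SE), Ccnd1 by -0.21 ± 0.15 (SE), Myc by 0.17 ± 0.17 (SE) and Igf1 by -0.30 ± 0.21 (SE), all with overlap. The palindromic consensus estrogen response element, searched on both strands, was in 0 of the 12 promoters of this list that could be matched and in 9 of all 33469 (0.0269%). The element is so rare in this window that a search of 12 promoters cannot show whether these genes lack it.

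Of 11 tested genes of the EGF family and its receptors, 7 had higher and 4 lower means (median 0.08). Egfr read 319, 165 and 161 on CAS and 273, 184 and 254 on GEN with overlap (0.20 ± 0.28 (SE)). Erbb3, a receptor for neuregulins, lay wholly above CAS at 137.5, 163 and 176 on CAS and 211.5, 217 and 249.6 on GEN (0.51 ± 0.24 (SE)), and Grb2, the adaptor that links these receptors to Ras, wholly below at 1592, 1816.5 and 1765.5 on CAS and 1574, 1194 and 1202 on GEN (-0.39 ± 0.15 (SE)), though a dimmer tested probe set of Grb2 differed by 0.06 with overlap. Erbb2 was below the filter, at 89.5, 97.5 and 43.8 on GEN and 148.2, 91.2 and 204.5 on CAS. In the prolactin and Stat5 list of 9 tested genes the median was 0.00. The kinase Jak2 read 353, 273 and 258 on CAS and 382, 441 and 392 on GEN (0.47 ± 0.21 (SE)), and the receptor Prlr was lower in mean at 2461, 2512 and 3475 on CAS and 1835, 1960.3 and 2359 on GEN (-0.45 ± 0.35 (SE)), without overlap in its brightest probe set but with overlap in the others. Stat5a differed by 0.00 ± 0.18 (SE).

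The PI3K pathway list had 6 higher and 10 lower means of 16, with 0 at an unadjusted p under 0.05 in limma in either direction. Mtor, the growth kinase, read 609, 689 and 718 on CAS and 531, 530.2 and 594 on GEN (-0.28 ± 0.14 (SE)) and lay wholly below CAS, and its substrate Rps6kb1 differed by -0.37 ± 0.21 (SE) with overlap. The Wnt list had 9 higher and 12 lower means of 21 (median -0.11). Tcf7, a transcription factor of the pathway, was lower at 230.1, 253.5 and 299 on CAS and 202.5, 146 and 169 on GEN (-0.60 ± 0.22 (SE)), and Sfrp2, a secreted Wnt modulator, higher at 232, 155 and 171 on CAS and 280.2, 278 and 336 on GEN (0.69 ± 0.31 (SE)), both without overlap. Axin2, the usual target gene of the pathway, differed by -0.11 ± 0.26 (SE). In the list of the IGF axis 8 of 10 means were higher (median 0.06), 0 at an unadjusted p under 0.05 in limma. Igf2 lay wholly above CAS at 1204, 1371.5 and 1055 on CAS and 1606, 1684 and 1505 on GEN (0.41 ± 0.27 (SE)), and Igfbp2, a carrier of IGF, differed by 0.64 ± 0.37 (SE) with overlap.

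In the 2 lists of fatty acid genes, which include Fads2, Fabp3 and Fabp9, most means were higher on GEN. Of 17 tested genes of fatty acid and triglyceride synthesis, 12 had higher means (median 0.22), 3 higher and 0 lower at an unadjusted p under 0.05, and 4 lay wholly above CAS. Thrsp, the lipogenic regulator Spot 14, read 913, 512 and 627 on CAS 1, 2 and 3 and 958, 1208 and 1349 on GEN 1, 3 and 5, a difference of 0.80 ± 0.29 (SE), and its other 2 probe sets, also without overlap, differed by 1.14 and 1.13. Elovl5, the elongase that works next to Fads2, read 2636, 3719 and 3212 on CAS and 3961, 3734 and 4277.5 on GEN (0.34 ± 0.15 (SE)), with a dimmer probe set at 0.93 that overlapped. The core enzymes overlapped, with fatty acid synthase, Fasn, at 0.38 ± 0.33 (SE), Acly at 0.28 ± 0.20 (SE) and Acaca at -0.01 ± 0.18 (SE). The median of this list was 0.06 without GEN 5.

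Fatty acid binding and oxidation genes had higher means in 18 of 22 members (median 0.21), with 3 higher at an unadjusted p under 0.05 and 4 wholly above CAS. Beside Fabp3 and Fabp9, these included Acadm, a dehydrogenase of beta-oxidation, at 989, 1168 and 1398 on CAS and 1536, 1525 and 1419.9 on GEN (0.35 ± 0.15 (SE)). The adipocyte gene Fabp4 differed by 0.21 ± 0.14 (SE), Fabp5 by 0.37 ± 0.21 (SE) and the carnitine transferase Cpt1a by -0.31 ± 0.17 (SE), all with overlap. The list mean was 10.16, 10.08 and 9.78 on CAS 1, 2 and 3 and 10.32, 10.36 and 10.46 on GEN 1, 3 and 5, wholly above CAS. In the list of cholesterol and lipoprotein genes, which includes Apod, the median was -0.04 with 6 of 17 means higher. Of these, Abcg1, which exports sterol, differed by 0.31 ± 0.17 (SE) and the lipoprotein receptor Scarb1 by 0.27 ± 0.14 (SE), both wholly above CAS in their brightest probe sets but not in the others, while Apoe differed by -0.02 ± 0.10 (SE).

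Serine, one-carbon and amino acid stress genes had higher means in 16 of 21 members (median 0.18), with 2 higher and 0 lower at an unadjusted p under 0.05. After Phgdh, Psat1, the next enzyme of serine synthesis, read 310, 188 and 277 on CAS and 406, 303 and 536 on GEN (0.68 ± 0.24 (SE)), with GEN 3 inside the CAS range. The last enzyme of that route, Psph, read 224, 254 and 79.4 on CAS and 209.9, 298 and 213 on GEN (0.52 ± 0.37 (SE)). Shmt1, which moves a carbon from serine to folate, lay wholly above CAS (0.60 ± 0.29 (SE)), and Gars1, the glycine tRNA ligase, wholly below (-0.28 ± 0.15 (SE)). Atf4, the transcription factor of the amino acid response, differed by 0.23 ± 0.17 (SE), and its targets Asns and Trib3 by 0.43 and -0.26. CAS 3 was the lowest of the 6 arrays in Phgdh, Psph and Mthfd2, and the mean difference of the list, 0.24, was 0.08 without it, and the median -0.0073. The amino acid response core TGATGNAA, searched on both strands, was in 4 of the 17 matched promoters of this list (23.5%: Aars1, Chac1, Got1 and Trib3) and in 3.98% of all promoters. The list includes targets of that response, so this share says nothing about the diets. Of the 24 genes named above as highest or lowest, 19 had a promoter and 1 (5.26%) held it.

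Beside Tfrc, iron genes showed small differences: of 13 members 9 had higher means (median 0.08) and 1, Tfrc, lay outside the CAS range. The exporter Slc40a1 differed by 0.06 ± 0.28 (SE) and the importer Slc11a2 by 0.03 ± 0.27 (SE). Only 4 of 11 carbonic anhydrases on the array were bright enough to test. Car2 has been given above, Car8 differed by 0.28 ± 0.25 (SE), Car3 by -0.26 ± 0.33 (SE) and Car5b by -0.39 ± 0.22 (SE).

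In the list of xenobiotic and steroid metabolism 16 of 24 means were higher (median 0.16), 1 at an unadjusted p under 0.05. That was Gsta1, a glutathione transferase, at 832.5, 616.5 and 798 on CAS and 855, 1172 and 1051.5 on GEN (0.45 ± 0.19 (SE)). The aryl hydrocarbon receptor Ahr had a lower mean (-0.31 ± 0.22 (SE)), its target Cyp1b1 was at 0.21 ± 0.31 (SE) with overlap, and Cyp1a1 was below the filter. Redox genes had higher means in 19 of 27 members (median 0.14). Gss, the last enzyme of glutathione synthesis, read 247, 260.5 and 311 on CAS and 439, 333 and 356 on GEN (0.46 ± 0.18 (SE)) and lay wholly above CAS, and the Nrf2 gene Nfe2l2 differed by 0.13 ± 0.21 (SE).

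Cell cycle and replication genes had higher means in 27 of 37 members, with a median of 0.19, 6 higher and 0 lower at an unadjusted p under 0.05, and 5 wholly above CAS. The mitotic cyclin Ccnb2 read 406, 299 and 475 on CAS 1, 2 and 3 and 581, 504 and 729 on GEN 1, 3 and 5, a difference of 0.63 ± 0.21 (SE). Rfc3, a subunit of the clamp loader, read 196, 188 and 207 on CAS and 282, 309 and 326 on GEN (0.63 ± 0.21 (SE)), with the CAS arrays within a narrow range, and the sliding clamp Pcna read 5592, 5729 and 4729.9 on CAS and 6289, 7700.4 and 6855 on GEN (0.38 ± 0.14 (SE)). Ube2c, which drives exit from mitosis, differed by 0.47 ± 0.19 (SE) and Cks2, a partner of cyclin-dependent kinases, by 0.37 ± 0.14 (SE). Not all of the list went this way: Mki67, the usual marker of proliferation, differed by 0.15 ± 0.27 (SE) and the replicative helicase genes Mcm2 and Mcm6 by -0.29 and -0.17, with overlap. Cyclins of the D type had lower means, with Ccnd1 at -0.21, Ccnd2 at -0.24 and Ccnd3 at -0.18, also with overlap. In the list of p53 targets and apoptosis 16 of 24 means were higher (median 0.10), and 0 were at an unadjusted p under 0.05 in limma. The cell cycle inhibitor Cdkn1a read 2553, 1614 and 1188 on CAS and 2914, 3467 and 2111 on GEN (0.71 ± 0.40 (SE)) and the pro-apoptotic Bak1 172, 170.3 and 211 on CAS and 144, 131 and 158 on GEN (-0.35 ± 0.20 (SE)).

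Immediate early genes, which respond to growth factors and to handling of tissue within minutes, had lower means in 19 of 25 members, all of them bright enough to test. The median was -0.13, with 1 higher and 5 lower at an unadjusted p under 0.05. Dusp1, a phosphatase that switches off MAP kinases, read 9849.6, 10580.5 and 8389 on CAS 1, 2 and 3 and 5917, 7341 and 7110.2 on GEN 1, 3 and 5, a difference of -0.50 ± 0.17 (SE) without overlap, while a dimmer tested probe set of Dusp1 differed by 0.49, the other way and with overlap. The Kruppel-like factors followed, with Klf2 at 2706, 2310 and 3255 on CAS and 1927.5, 2113 and 1764 on GEN (-0.50 ± 0.17 (SE)), Klf4 at -0.43 ± 0.16 (SE) and Klf6 at -0.35 ± 0.13 (SE), and the matricellular gene Ccn1 at -0.78 ± 0.30 (SE), none overlapping in the brightest probe set. The other 3 tested probe sets of Klf2 overlapped, at 0.03, -0.16 and 0.09, and the other one of Klf6 at -0.18. Fosl2, a Fos relative, was higher at 268, 288 and 173.5 on CAS and 348, 372 and 364 on GEN (0.60 ± 0.24 (SE)). The early genes Fos, Junb and Nr4a1 differed by -0.01, -0.04 and -0.02, with overlap.

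Extracellular matrix genes had lower means on GEN in 44 of 53 members, with a median of -0.18. At an unadjusted p under 0.05, 1 was higher and 9 were lower, and 8 lay wholly below CAS. Beside P3h3 and Col5a3, these were genes of collagen chains and their processing. Pcolce, which enhances cleavage of procollagen, read 4195, 2589 and 2978 on CAS 1, 2 and 3 and 1760.4, 2065 and 1833 on GEN 1, 3 and 5, a difference of -0.76 ± 0.23 (SE). Col5a1 read 3750.1, 2290.2 and 2149 on CAS 1, 2 and 3 and 1667, 1650.3 and 1543.5 on GEN 1, 3 and 5, a difference of -0.71 ± 0.26 (SE), with the GEN arrays close together and CAS 1 the highest. Col6a3 read 7681, 6448 and 5847.5 on CAS and 5276, 4137 and 4554 on GEN (-0.51 ± 0.15 (SE)), the basement membrane proteoglycan Hspg2 979, 1043 and 1113 on CAS and 845, 674 and 694 on GEN (-0.51 ± 0.22 (SE)) and the prolyl hydroxylase P3h1 442, 345 and 415 on CAS and 309, 297 and 278 on GEN (-0.44 ± 0.16 (SE)). The abundant fibrillar chains overlapped, with Col1a1 at -0.43 ± 0.31 (SE), Col1a2 at -0.30 ± 0.26 (SE) and Col3a1 at -0.11 ± 0.19 (SE). Sparcl1, an antiadhesive matrix protein, was higher at 4899, 8528 and 5799 on CAS and 9078, 8646 and 8557 on GEN (0.49 ± 0.20 (SE)).

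The matrix list mean was 11.19, 10.84 and 10.81 on CAS 1, 2 and 3 and 10.78, 10.67 and 10.76 on GEN 1, 3 and 5, wholly below CAS, and its difference of -0.21 was -0.09 without CAS 1. Fibroblast markers also had lower means, in 20 of 23 members (median -0.33), with 0 higher and 4 lower at an unadjusted p under 0.05 and 4 wholly below CAS. Their mean was 11.45, 10.67 and 10.90 on CAS 1, 2 and 3 and 10.48, 10.81 and 10.65 on GEN 1, 3 and 5, with overlap, and the difference of -0.36 was -0.14 without CAS 1. Pi16, Cd248 and Cd55 have been given above, Dpt, a matrix protein of dermal fibroblasts, differed by -0.38 ± 0.22 (SE), and the general fibroblast genes Dcn (-0.04 ± 0.40 (SE)), Pdgfra (-0.16 ± 0.32 (SE)) and Vim (0.06 ± 0.12 (SE)) overlapped. The share of fibroblasts in the pools and its part in the matrix values was not tested.

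Matrix proteases and their inhibitors had 9 higher and 12 lower means of 21 (median -0.02), with 0 outside the CAS range. Reck, a membrane inhibitor of metalloproteinases, differed by -0.49 ± 0.22 (SE), Cst3, a cysteine protease inhibitor, by 0.27 ± 0.15 (SE), and Mmp2 by 0.02 ± 0.24 (SE). Of 31 genes of activin, TGF-beta and BMP signalling 12 had higher and 19 lower means (median -0.07), with 0 higher and 3 lower at an unadjusted p under 0.05. Beside the receptor Acvr2a, the ligand Bmp4 read 881, 883 and 1043 on CAS and 659, 671 and 611 on GEN (-0.53 ± 0.15 (SE)), with both diets in narrow ranges that did not meet, and the follistatin-like Fstl1 4781, 3010.5 and 3370.5 on CAS and 2597, 2769.5 and 2623 on GEN (-0.45 ± 0.16 (SE)). The other 2 tested probe sets of Fstl1 overlapped, at -0.40 and 0.10. The activin subunits Inhba and Inhbb differed by 0.18 ± 0.27 (SE) and -0.28 ± 0.22 (SE), the activin antagonist Fst by -0.07 ± 0.27 (SE), and the type I receptors Acvr1 and Tgfbr1 by 0.28 ± 0.29 (SE) and 0.09 ± 0.18 (SE), all with overlap.

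Macrophage markers had lower means in 16 of 21 members (median -0.47), with 0 higher and 4 lower at an unadjusted p under 0.05 and 1, Stab1, wholly below CAS. C1qa, a chain of complement C1q, read 2873, 968 and 2533 on CAS 1, 2 and 3 and 669.5, 1425 and 809 on GEN 1, 3 and 5, a difference of -1.06 ± 0.45 (SE). CAS 2 was as low as the GEN arrays and GEN 3 as high as some CAS arrays. The class II gene RT1-Da differed by -0.89 ± 0.39 (SE), Mpeg1 by -0.69 ± 0.29 (SE), the scavenger marker Cd68 by -0.23 ± 0.26 (SE) and Csf1r by -0.25 ± 0.36 (SE). The list mean was 10.30, 9.55 and 10.50 on CAS 1, 2 and 3 and 9.30, 10.17 and 9.55 on GEN 1, 3 and 5, spread widely within both diets, and the difference of -0.44 ran from -0.72 without CAS 2 to -0.25 without GEN 1 or without CAS 3.

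Only 9 of 22 lymphocyte markers were bright enough to test, 6 with lower means (median -0.42) and 2 lower at an unadjusted p under 0.05. Those were Spn and the pan-leukocyte phosphatase Ptprc (-0.77 ± 0.32 (SE), with overlap), while the T cell genes Lck and Cd247 differed by 0.09 ± 0.15 (SE) and 0.08 ± 0.21 (SE). Mast cell markers had lower means in 6 of 9 members (median -0.33). Hdc, which makes histamine, read 368, 245 and 236.5 on CAS and 213, 201 and 163 on GEN (-0.54 ± 0.22 (SE)), and the list mean differed by -0.27, by -0.05 without CAS 1 and by 0.00 without GEN 1, where its median was 0.0080. Interferon response genes had 17 higher and 14 lower means of 31 (median 0.03). The antiviral kinase Eif2ak2 read 362, 336 and 411 on CAS and 624, 524 and 604 on GEN (0.66 ± 0.18 (SE)) and the interferon factor Irf9 310.3, 299 and 467 on CAS and 279.5, 271.5 and 235 on GEN (-0.43 ± 0.20 (SE)), on opposite sides of CAS. The usual targets Mx1 (-0.26 ± 0.29 (SE)) and Ifit1 (0.07 ± 0.28 (SE)) overlapped.

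Adipocyte markers had higher means in 10 of 16 members (median 0.14), with 2 higher and 1 lower at an unadjusted p under 0.05. Sncg, gamma-synuclein, which is abundant in fat cells, read 2198, 2697 and 1621 on CAS 1, 2 and 3 and 3325, 3972 and 4469 on GEN 1, 3 and 5, a difference of 0.87 ± 0.24 (SE) without overlap. Cfd, the complement factor adipsin, read 2797, 1137 and 2257 on CAS and 541, 1784 and 913 on GEN and had a lower mean (-1.01 ± 0.45 (SE)) with overlap, and the lipase Lipe differed by -0.37 ± 0.31 (SE). Endothelial and pericyte markers had 7 higher and 12 lower means of 19 (median -0.05), with 0 at an unadjusted p under 0.05 in limma and 0 outside the CAS range. Vwf, the von Willebrand factor, differed by -0.38 ± 0.22 (SE) and Ramp2, a coreceptor for adrenomedullin, by -0.34 ± 0.19 (SE).

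Schwann cell markers were evenly split, 6 higher and 6 lower of 12 (median 0.01). Beside Scn7a, the myelin gene Mbp read 366.5, 277 and 180.2 on CAS 1, 2 and 3 and 632, 423 and 670.3 on GEN 1, 3 and 5, a difference of 1.10 ± 0.25 (SE) without overlap, whereas a probe set of Mbp below the filter overlapped at 0.55. Ngfr, the low-affinity neurotrophin receptor, was lower at 198.5, 299 and 239.7 on CAS and 179.7, 141 and 184 on GEN (-0.54 ± 0.20 (SE)), and the myelin gene Pmp22 differed by -0.06 ± 0.15 (SE). Skeletal muscle markers had lower means in 9 of 11 tested members (median -0.25), 0 at an unadjusted p under 0.05 in limma. Ampd1, the AMP deaminase of muscle, was the 1 member outside the CAS range, wholly above it at 255, 234 and 125 on CAS and 302, 268 and 256 on GEN (0.49 ± 0.29 (SE), and 0.17 without CAS 3). Atp2a1, the calcium pump of fast muscle, read 379, 223 and 221 on CAS and 234, 163.5 and 169 on GEN and had a lower mean (-0.51 ± 0.27 (SE), and -0.25 without CAS 1). Acta1, skeletal actin, read 1731, 139 and 259 on CAS and 246, 157 and 308 on GEN, so that CAS 1 alone was high, and the list mean of that array was 9.39 against 8.16 to 8.51 on the other 5. The difference of the list mean was -0.21 with CAS 1 and 0.17 without it, and the median turned to 0.14. The part of muscle in CAS 1 in its high fibroblast and matrix means was not tested. Of the colon markers, 5 were tested. Clca1 differed as given above, Lgals4 by 0.61 ± 0.29 (SE), Tff3 by 0.20 ± 0.16 (SE), Cdx2 by -0.08 ± 0.17 (SE) and Reg3b by -0.08 ± 0.29 (SE). Their mean was 9.01, 8.68 and 8.98 on CAS 1, 2 and 3 and 9.35, 9.38 and 9.54 on GEN 1, 3 and 5, wholly above CAS. The mean difference was 0.53 and the median 0.20.

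**Figure D5:**
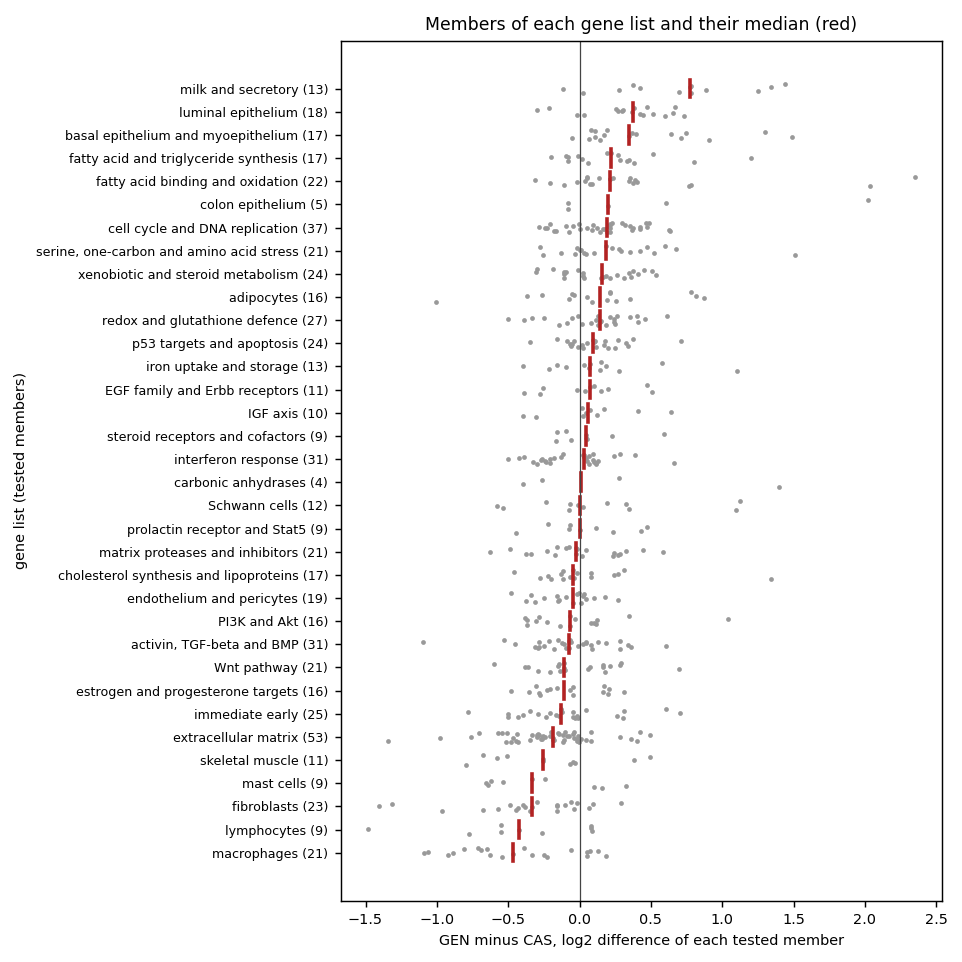
Each grey point is the GEN minus CAS log2 difference (x axis) of 1 tested member of a gene list (y axis, number of tested members in parentheses), and the red bar is the median of the list. Medians run from 0.78 for milk and secretory genes to -0.47 for macrophage markers, against -0.02 over all 7119 genes, and most lists spread widely on both sides of 0.

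The SPI diet gave a further set of values. It shares its CAS arrays with the comparison above, so SPI minus CAS and GEN minus CAS are given side by side and the direct test is GEN minus SPI, in which 0 of 9520 probe sets (0%) passed, 757 (7.95%) had an unadjusted p under 0.05 and the smallest adjusted p in limma was 0.132. Wap was at 1079, 1112, 573.5 and 611.5 on SPI 2, 3, 4 and 5, below every GEN array, with SPI minus CAS at -0.62 beside GEN minus CAS at 1.44. The GEN minus SPI difference of 2.06 ± 0.33 (SE) shared the smallest adjusted p, 0.132 in limma, with that of Reg3b. Reg3b, which is not a milk gene, was at 1.74 ± 0.27 (SE), with SPI minus CAS at -1.81 and GEN minus CAS at -0.08. Il17b came next, with a GEN minus SPI difference of 1.38 ± 0.23 (SE) and an adjusted p of 0.135 in limma. Lalba showed a difference of 1.18 ± 0.22 (SE) from SPI (adjusted p = 0.243 in limma), with SPI minus CAS at -0.76. Over the milk list the median was 0.58 for GEN minus SPI and 0.03 for SPI minus CAS. Luminal markers had medians of 0.69 and -0.28, and SPI 4, whose actin ratio of 7.77 was the highest of the series, had the lowest luminal mean; its part was not tested. Several lists lower on GEN also had SPI minus CAS medians below 0: lymphocytes -0.71, macrophages -0.63, mast cells -0.47, fibroblasts -0.46 and extracellular matrix -0.10. Others with a GEN median below 0 were above 0 on SPI minus CAS, such as endothelium at 0.17 and estrogen targets at 0.08.

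Acvr2a on SPI read 306, 319, 325 and 277, all above the GEN arrays, with SPI minus CAS at -0.23 and a GEN minus SPI difference of -0.87 ± 0.17 (SE) (adjusted p = 0.284 in limma). Bmp4 had a GEN minus SPI difference of -0.58 ± 0.14 (SE) and an SPI minus CAS value of 0.05. Other genes stood on the same side of CAS under both diets. Fabp3 was at 1.54 on SPI minus CAS beside 2.04 on GEN minus CAS, Car2 at 1.20 beside 1.40, Tfrc at 0.75 beside 1.10 and Apod at 0.72 beside 1.34. On the lower side, P3h3 was at -1.05 beside -0.98, Pi16 at -1.20 beside -1.41 and Cdh22 at -1.58 beside -1.28. For these genes GEN minus SPI was between -0.21 and 0.62, and its adjusted p was not under 0.05 in limma for any gene tested.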

How the data were processed

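RNA of rat mammary gland had been hybridised to Affymetrix RAE230 arrays. The values are the authors' MAS5 signal intensities, linear and 1 per probe set, with the tool named in the submitters' processing notes and its version not given there. The deposited intensity values were globally scaled: the mean of each array after removing 2% of probe sets at each end was about 500.1, so a difference in total RNA between arrays cannot be seen.

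Of 15923 probe sets, 57 controls were left out. Values under 1 (0.0637%) were set to 1 before log2. The 40% of probe sets with the lowest mean over the 10 arrays were left out, and 9520 were tested, the dimmest at a geometric mean of 162. No absence calls were used. Of the 15866 probe sets, the platform annotation gave 1 symbol for 12783, several for 312 and none for 2771, and a check of 12748 gene identifiers against a current table altered 0 symbols.

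All 10 arrays entered 1 fit with limma 3.58.1 in R 4.3.3 (lmFit, eBayes with trend), which gave 7 residual degrees of freedom, 12.9 with the prior, and the Benjamini-Hochberg adjustment ran over 9520 probe sets. The fit was tested on simulated data. The number of arrays limits the precision. Replicate numbers did not pair the samples. The naming rule took the 12 highest and 12 lowest differences at an unadjusted p under 0.01 without overlap, then members of 34 gene lists at an unadjusted p under 0.05 without overlap (otherwise the 2 with the smallest p), and Esr1, Esr2, Pgr, Egfr and Erbb2. 1 gene of the rule is not reported here. Other genes of a list were named after their values were seen. The comparison, the lists and the rule were chosen with earlier results of these data known. The 17 alternatives covered filter, floor, scaling, model and single arrays. Promoters were matched to RefSeq by symbol.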

Additional observations from a re-analysis of the deposited data

How the results depend on the processing

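Under 17 alternatives no difference of a gene named by the rule changed its sign. Most of these genes were chosen for no overlap between the diets, and leaving out 1 array cannot change the sign of such a gene. The unchanged signs are therefore no independent support for the differences. The medians of 15 of 34 gene lists changed sign under 1 or more of them. Probe sets between GEN and CAS at an adjusted p under 0.05 in limma numbered 2 with the lowest 60% left out and 2 with array weights, each time Apod (adjusted p 0.0463 and 0.0360) and the probe set without a symbol described below, and 0 to 1 when 1 array was left out (Apod at 0.0462 without CAS 1). The adjusted p of Apod in limma ran up to 0.823 over the alternatives, with the replicate block. With the 6 GEN and CAS arrays alone, the smallest adjusted p of any probe set in limma was 0.411. The main fit also takes its spread from the SPI arrays. Unadjusted counts for GEN against CAS were 884 (437 higher) with no filter and 354 to 752 without 1 array, from GEN 5 to CAS 1, with 143 to 319 higher and 191 to 433 lower. With the replicate block there were 416 and 0 adjusted calls; the numbers did not pair the samples. For GEN against SPI the unadjusted counts were 1213 with no filter, 498 with 60% left out, 1188 with array weights, 286 with the replicate block and 487 to 977 without 1 array, and adjusted calls were 2 with array weights and 0 to 1 without 1 array.

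Medians moved as follows, and the cause was not tested. With 60% left out, a filter that keeps fewer members, they were -0.060 for steroid receptors, -0.048 for estrogen targets, 0.84 for carbonic anhydrases, 0.19 for adipocytes and -0.090 for lymphocytes. Quantile normalization gave 0.10 for adipocytes and array weights 0.071 for Schwann cells. The replicate block gave 0.017 for Wnt, 0.083 for fatty acid synthesis and -0.013 for immediate early genes. Without 1 array each in turn, medians ran from -0.074 to 0.042 for steroid receptors, -0.15 to -0.050 for estrogen targets, -0.063 to 0.11 for prolactin and Stat5, -0.15 to 0.037 for PI3K, -0.13 to 0.033 for Wnt, 0.063 to 0.28 for fatty acid synthesis, -0.089 to 0.044 for cholesterol, 0.013 to 0.20 for iron, -0.13 to 0.27 for carbonic anhydrases, 0.068 to 0.20 for xenobiotic metabolism, -0.11 to 0.031 for interferon response, 0.073 to 0.17 for adipocytes, -0.60 to -0.12 for lymphocytes and -0.042 to 0.11 for Schwann cells. The table holds signals without background or detection values, so how far a dim probe set was above background is unknown.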

Other observations

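The probe set that came next to Apod in the order of p between GEN and CAS has no gene symbol in the annotation used here. It read 504, 537 and 325.5 on CAS 1, 2 and 3 and 1174, 975 and 1385 on GEN 1, 3 and 5, so that all GEN arrays were above all CAS arrays, a difference of 1.39 ± 0.20 (SE) with an adjusted p of 0.0649 in limma. On SPI it read 836, 1011.5, 1026 and 1088, and SPI minus CAS was 1.15.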
